A study of Mus musculus with 7 samples.

Results

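The circadian clock is a feedback loop of transcription that runs in most cells of the body, skin included, with a period of about a day. The transcription factors ARNTL (now called BMAL1) and CLOCK bind E-boxes and switch on the period genes, the cryptochromes, Nr1d1 and the PAR bZIP factors, while PER and CRY proteins hold them back. NR1D1 represses Arntl through ROR response elements, and DBP and TEF act on D-boxes, so that in a running clock Arntl and Dbp are known to peak at opposite times of day. The 10 clock genes described here are Arntl, Clock, Npas2, Per1, Per2, Per3, Cry1, Nr1d1, Dbp and Tef. They were chosen by name, and all 20 probes that carry one of these names were kept apart, out of 41174 probes on the array. Of these, 18 probes of 9 genes were well above background in enough channels to be tested, out of 25176 probes tested in all.

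Male mice of the hairless strain HR-1 gave dorsal skin, and its RNA was measured on 7 arrays with 2 colours, each holding a GC-fed and a control-fed sample. GC is glucosylceramide, a sphingolipid, given in AIN-93G diet, and the control diet was AIN-93G without it; the labels give an age of 5 weeks. The groups were GC-fed skin after SDS (4 samples), control-fed skin after SDS (4 samples), GC-fed skin before SDS (3 samples) and control-fed skin before SDS (3 samples). SDS, a detergent, was put on the skin at 10% for 5 minutes a day on 2 days, so after-SDS skin came from day 14 of the diet and before-SDS skin from day 12. The labels describe no skin treated with vehicle, give no hour of sampling, and do not say whether a replicate was 1 mouse or a pool, so p-values measure the spread between these samples.

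The tissue label was checked against markers: all 7 basal keratinocyte, all 7 suprabasal keratinocyte and all 6 dermal fibroblast genes were detected, as were all 10 skeletal muscle and all 9 adipocyte genes. Spots well above background made up 48.5% to 54.5% of an array in green and 58.2% to 62.8% in red, and no spot was saturated. The number of arrays limits the precision. After-SDS array 4 stood apart: its diet ratios correlated across probes at -0.45, -0.60 and -0.24 with those of after-SDS arrays 1, 2 and 3. The direction given by the dye labels was kept. The before-SDS arrays lay on 1 slide and the after-SDS arrays on another, so SDS, slide and day of sampling cannot be told apart. In whole skin, fewer cells of a type and less RNA per cell cannot be told apart either.

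Promoters of 6 members are shown because their genes carry the results below: Per3 and Tef fell after SDS, Per1, Nr1d1 and Dbp are further targets of the loop, and Arntl is its activator. They come from RefSeq (GRCm38.p6) and run from 250 bases before to 50 bases after a start, 5′ to 3′ on the strand of the gene, with motif matches in capitals. Of the members, 9 matched the table, with 14 promoters. Per2, which fell after SDS as well, has no promoter there and is not shown. Per3 (chr4:151044616-151044915, minus strand) has 2 D-box matches, and Tef has an E-box in each of its promoters (chr15:81802423-81802722 and chr15:81811164-81811463, plus strand). Per1 has an E-box (chr11:69098699-69098998, plus strand, the first of its 2 promoters), Nr1d1 an E'-box (chr11:98775328-98775627, minus strand) and Arntl a RORE core (chr7:113207261-113207560, plus strand, the second of its 2 promoters). The Dbp window (chr7:45704997-45705296, plus strand) holds none of these letters. Nor do the other Per1 promoter and the other Arntl promoter, which are not printed.
Per3: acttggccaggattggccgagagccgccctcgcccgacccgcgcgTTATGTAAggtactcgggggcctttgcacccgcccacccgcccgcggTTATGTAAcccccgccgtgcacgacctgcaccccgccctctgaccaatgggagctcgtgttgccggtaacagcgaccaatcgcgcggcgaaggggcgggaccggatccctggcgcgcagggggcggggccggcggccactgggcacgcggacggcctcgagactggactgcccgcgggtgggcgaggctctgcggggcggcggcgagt
Tef, start 1: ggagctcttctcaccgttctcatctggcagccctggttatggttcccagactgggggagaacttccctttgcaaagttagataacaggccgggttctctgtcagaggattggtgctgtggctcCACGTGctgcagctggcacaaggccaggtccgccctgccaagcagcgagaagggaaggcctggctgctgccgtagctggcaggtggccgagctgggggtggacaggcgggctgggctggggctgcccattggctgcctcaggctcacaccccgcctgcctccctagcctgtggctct
Tef, start 2: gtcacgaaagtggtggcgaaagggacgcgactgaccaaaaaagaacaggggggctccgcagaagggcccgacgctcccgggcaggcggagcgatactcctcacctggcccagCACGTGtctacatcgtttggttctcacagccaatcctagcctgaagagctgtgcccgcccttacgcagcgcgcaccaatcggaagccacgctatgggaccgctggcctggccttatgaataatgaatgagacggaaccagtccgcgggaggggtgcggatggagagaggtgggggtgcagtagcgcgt
Per1: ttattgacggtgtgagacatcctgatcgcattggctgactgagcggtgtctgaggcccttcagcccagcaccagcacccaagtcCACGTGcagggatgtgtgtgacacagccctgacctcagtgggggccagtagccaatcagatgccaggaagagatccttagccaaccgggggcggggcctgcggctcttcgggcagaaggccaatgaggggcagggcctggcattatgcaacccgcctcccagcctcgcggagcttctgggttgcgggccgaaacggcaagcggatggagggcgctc
Nr1d1: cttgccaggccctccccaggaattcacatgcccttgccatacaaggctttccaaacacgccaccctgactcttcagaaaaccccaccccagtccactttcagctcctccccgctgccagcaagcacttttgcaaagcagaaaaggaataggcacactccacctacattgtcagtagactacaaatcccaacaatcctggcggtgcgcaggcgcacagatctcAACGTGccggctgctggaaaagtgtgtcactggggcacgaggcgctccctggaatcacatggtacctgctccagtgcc
Arntl: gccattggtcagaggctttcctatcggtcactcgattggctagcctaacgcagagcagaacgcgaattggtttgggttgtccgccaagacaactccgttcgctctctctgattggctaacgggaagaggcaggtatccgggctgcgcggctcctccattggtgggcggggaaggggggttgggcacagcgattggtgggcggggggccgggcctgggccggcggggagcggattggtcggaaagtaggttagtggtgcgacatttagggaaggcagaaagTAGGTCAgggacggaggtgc
Dbp: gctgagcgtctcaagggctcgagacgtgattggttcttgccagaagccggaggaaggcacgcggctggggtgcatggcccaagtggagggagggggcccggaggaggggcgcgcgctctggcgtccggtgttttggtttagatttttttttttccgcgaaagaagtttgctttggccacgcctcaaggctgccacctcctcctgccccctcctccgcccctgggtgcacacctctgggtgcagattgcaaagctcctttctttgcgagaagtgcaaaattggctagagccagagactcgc

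The motifs searched on both strands were the E-box CACGTG, the E'-box CACGTT, the D-box TTATGTAA or TTACGTAA, the RORE core TAGGTCA and the cAMP response element TGACGTCA; no 2 of them overlapped in the promoters shown. Of all 32851 promoters in the table, 7.15% hold the E-box, 4.68% the E'-box, 1.06% the D-box, 2.61% the RORE core and 1.79% the cAMP response element. Of the 14 promoters of members, 4 hold the E-box, 2 the E'-box, 1 the D-box, 1 the RORE core and 0 the cAMP response element. A match describes the letters in the window and does not show that a factor binds there.

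The first question was whether clock genes differed between GC-fed and control-fed skin. None of the 18 tested probes passed in any diet comparison (limma, adjusted p under 0.05), where 0% of all probes tested passed as well. At an unadjusted p under 0.05 (limma), 0 of 18 clock probes were found before SDS and 1 of 18 after SDS. Of all probes, 114 (0.453%) and 1082 (4.3%) were. The median log2 ratio of the 18 probes, GC-fed over control-fed, was -0.03 after SDS and -0.01 before SDS, and that of all probes was 0 in both states.

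Arntl, the activator, had log2 ratios of 0.09, 0.15, 0.39 and 0.05 on the 4 after-SDS arrays and of 0.04, 0.11 and 0.18 on the 3 before-SDS arrays. It was thus a little higher in GC-fed skin on each array, most on after-SDS array 3. Its fitted ratio was 0.17 ± 0.07 (SE) after SDS, with an unadjusted p of 0.047 and an adjusted p of 0.842 in limma, and 0.09 ± 0.08 before SDS (adjusted p = 1). Over the 7 arrays together it was 0.14 ± 0.05 with an adjusted p of 0.961, so the difference failed the correction. A ratio above 0 on all 7 arrays was seen for 2 of the 18 clock probes (Arntl and a dimmer Clock probe whose ratios lay between 0 and 0.23), against 0.326% of all probes.

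Clock, the partner of ARNTL, had ratios of 0, 0.06, 0.17 and 0.03 after SDS and of -0.08, 0.19 and -0.16 before SDS at its brightest probe. These lie on both sides of 0, and the fitted ratios were 0.07 ± 0.07 after SDS and -0.03 ± 0.09 before SDS (SE). Npas2, which can stand in for CLOCK, was not well above background in any of the 14 channels and was not tested. The dimmest Clock probe was above background in 2 of 14 channels and was not tested either.

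Among the repressors, Per1 varied most between arrays. Its ratios were 0.20, 0.44, -0.58 and -0.56 after SDS and 0.34, 0.47 and -0.36 before SDS, so that both states held ratios on both sides of 0. The fit gave -0.12 ± 0.15 after SDS and 0.26 ± 0.17 before SDS (SE), with adjusted p of 0.869 and 1. Per2 had ratios of -0.02, -0.41, -0.05 and 0.35 after SDS and of -0.28, 0.33 and -0.06 before SDS, again with no common direction. Per3 had ratios of 0.07, -0.09, -0.38 and -0.19 after SDS and of 0.07, -0.04 and 0.40 before SDS. For Per3 the ratio after SDS minus the ratio before SDS was -0.31 ± 0.15 (SE, limma adjusted p = 1), and -0.16 without before-SDS array 3. Cry1, a cryptochrome, had ratios between -0.35 and 0.22 after SDS and between -0.05 and 0.20 before SDS at a probe above background in 10 of 14 channels.

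Nr1d1, the repressor of Arntl, had ratios of 0.13, 0.20, -0.26 and -0.09 after SDS and of -0.07, 0.06 and 0.40 before SDS. Dbp, a D-box activator known for a wide daily swing, had ratios of 0.23, 0.04, -0.47 and -0.15 after SDS and of 0.14, -0.12 and -0.06 before SDS. Tef, its relative, had ratios of 0.12, 0.18, -0.50 and -0.14 after SDS and of -0.10, -0.08 and -0.11 before SDS. On the after-SDS arrays the Dbp and Tef ratios had the same sign on each array: above 0 on arrays 1 and 2, below 0 on arrays 3 and 4. The GC-fed sample carried Cy3 on after-SDS arrays 1 and 2 and on before-SDS array 1, and Cy5 on the other 4 arrays. The Dbp ratio was thus above 0 on 3 of 3 Cy3 arrays and on 0 of 4 Cy5 arrays. In the same order Per1 was above 0 on 3 of 3 and 1 of 4, Tef on 2 of 3 and 0 of 4, Per3 on 2 of 3 and 1 of 4, and Per2 on 0 of 3 and 2 of 4. Nr1d1 was above 0 on 2 of 3 and 2 of 4, and Arntl on 3 of 3 and 4 of 4. On the Cy5 arrays Cry1 was above 0 on 4 of 4 and Clock on 3 of 4. On the Cy3 arrays Cry1 had 0, -0.35 and -0.05, and Clock 0, 0.06 and -0.08. The part of the dye in these signs was not tested beyond the dye term of the fit. The fitted ratios after SDS were -0.01 ± 0.11 for Nr1d1, -0.09 ± 0.08 for Dbp and -0.08 ± 0.09 for Tef (SE), and the 95% intervals reached from -0.26 to 0.25, from -0.27 to 0.10 and from -0.30 to 0.13.

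**Figure D1:**
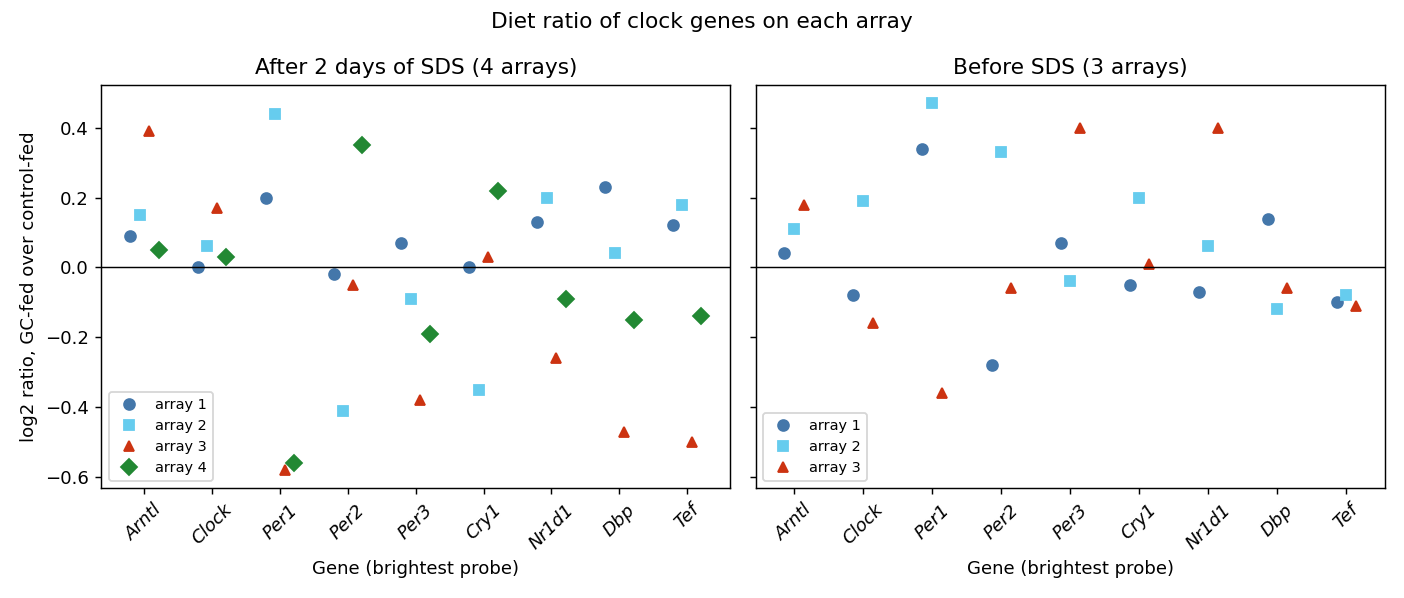
Diet ratio on the log2 scale, GC-fed over control-fed (vertical axis), for the brightest probe of each of 9 clock genes (horizontal axis), with 1 point per array, after SDS on the left and before SDS on the right. Arntl lies above 0 on all 7 arrays, and after-SDS array 3 holds Arntl at 0.39 with Dbp at -0.47 and Tef at -0.50.

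The next question was whether the pattern is one of sampling hour. Because Arntl and its targets are known to peak at different times of day, the ratios were set out array by array for 6 targets of the loop (Per1, Per2, Per3, Nr1d1, Dbp and Tef). On after-SDS array 3 all 6 lay below 0, between -0.58 and -0.05 with a median of -0.43, while Arntl stood at 0.39 and Clock at 0.17. On after-SDS array 4, 5 of 6 lay below 0 with a median of -0.15, Per2 at 0.35 being the exception, while Arntl was at 0.05. On both of these arrays the GC-fed sample carried Cy5. On after-SDS arrays 1 and 2, 1 and 2 of the 6 lay below 0, and on before-SDS arrays 1, 2 and 3, 3, 3 and 4 of the 6 did.

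For these targets, each at its brightest probe, the opposed pattern was thus complete on 1 array of 7, after-SDS array 3. Cry1, a cryptochrome and so also a target of the loop, was not in the set. Its probes stood at 0.03 and 0.29 on after-SDS array 3, and a dimmer Tef probe stood at 0.26. The other dimmer tested probes of the targets lay between -0.18 and -0.03 on after-SDS array 3. That array also had the widest diet ratios over all probes, with an SD of 0.39 and 22.3% of probes beyond 0.4 in either direction; on the other arrays the SD was 0.17 to 0.32 and the share 2.89% to 14.8%. On the same array the skeletal muscle markers had a median ratio of -1.49, the adipocyte markers of -1.05 and the hair follicle markers of 1.20, and the part of these in the clock ratios was not tested. The hour of sampling is not in the labels, so whether it differed between the paired samples was not tested.

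Dbp was set against each of the other 8 tested clock genes, and Arntl against 7, over the 7 arrays, which made 15 relations. The closest was that of Dbp with Tef, with Pearson's r = 0.858 (exact permutation p = 0.0165, adjusted 0.247) and Spearman's rho = 0.75 (exact permutation p = 0.0663, adjusted 0.433). Dbp and Arntl gave r = -0.77 (exact permutation p = 0.056, adjusted 0.42) and rho = -0.464 (exact permutation p = 0.302, adjusted 0.648). Without the 2 arrays farthest from the median Dbp ratio, after-SDS arrays 1 and 3, r was 0.367 for Tef and -0.137 for Arntl, so both relations rest on those arrays. With ratios centred within each dye orientation and permuted within it, a check chosen after seeing the data, r was 0.722 for Dbp with Tef (exact permutation p = 0.146, adjusted 0.458) and -0.806 for Dbp with Arntl (exact permutation p = 0.132, adjusted 0.458). No relation passed after adjustment, and the slides, with 4 and 3 arrays, hold too few for a value of their own.

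**Figure D2:**
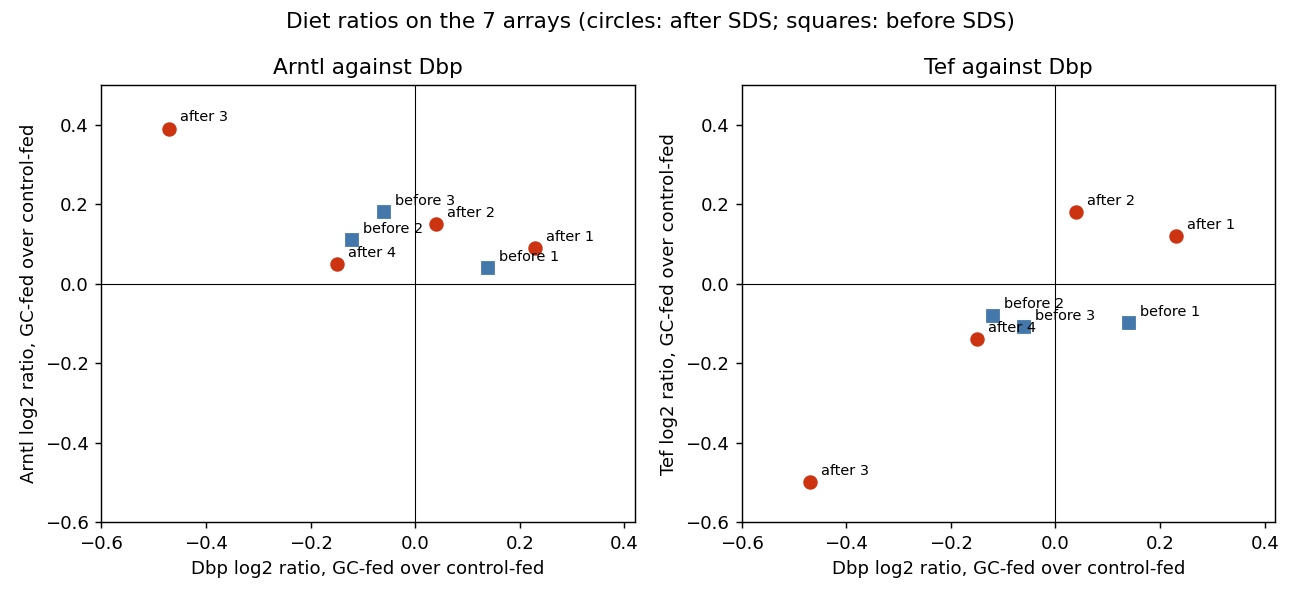
Diet ratio of Arntl (left) and of Tef (right) against that of Dbp, all as log2 of GC-fed over control-fed, on 4 after-SDS arrays (circles) and 3 before-SDS arrays (squares). After-SDS array 3 lies far from the others in both panels, with Dbp at -0.47.

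By likeness over the 7 diet ratios, the 5 genes closest to Dbp were Syngr2, Rtf2, Eftud2, Cracr2b and Pfkl, with r from 0.979 to 0.986. These 5 had their lowest ratios on after-SDS array 3, from -0.63 to -0.21, and lay below 0 on all 4 arrays with the GC-fed sample in Cy5. The 5 closest to Arntl were Ercc6, Prickle3, Polr3e, Mycl and Tjp1, with r from 0.986 to 0.989. Their highest ratios, from 0.22 to 0.95, were on after-SDS array 3. All 5 lay below 0 on after-SDS array 4 and before-SDS array 1, where Arntl was at 0.05 and 0.04. Of 13844 genes compared, 122 (0.881%) had r over 0.9 with Dbp and 189 (1.37%) with Arntl. The clock genes described here were left out of this comparison beforehand, so none of them could appear in it.

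The last question was how clock genes differed between skin after SDS and skin before it, within each diet. Tef and Per2 fell in both diets, and Per3 fell in GC-fed skin. In GC-fed skin 3 of 18 clock probes fell and 0 rose (limma, adjusted p under 0.05), where 12.1% of all 25116 probes in the fit passed, 6.66% as falls and 5.43% as rises. In control-fed skin 2 of 18 fell and 0 rose, where 13.5% of all probes passed, 7.32% as falls and 6.2% as rises. The median log2 change of the 18 probes was -0.13 in GC-fed and -0.18 in control-fed skin, and that of all probes was 0 in both.

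Tef, the D-box factor, had log2 intensities of 11.26, 11.31, 11.04 and 11.30 in GC-fed skin after SDS, against 11.74, 11.82 and 11.89 before it. In control-fed skin they were 11.13, 11.13, 11.54 and 11.45 after SDS, against 11.84, 11.90 and 11.99 before it. In both diets each sample after SDS lay below each sample before it. Tef fell by 0.61 ± 0.09 on the log2 scale in GC-fed skin (SE, fold 0.655, limma adjusted p = 0.00462) and by 0.58 ± 0.09 in control-fed skin (fold 0.671, adjusted p = 0.00391). Without before-SDS array 1 the control-fed fall was 0.52 with an adjusted p of 0.0548. The 3 dimmer Tef probes, whose log2 changes were -0.20 to -0.06 in GC-fed and -0.19 to -0.04 in control-fed skin, did not pass.

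Per2, a repressor of the loop, had log2 intensities of 8.75, 8.42, 8.64 and 9.12 in GC-fed skin after SDS, against 9.13, 9.51 and 9.40 before it. In control-fed skin they were 8.77, 8.83, 8.69 and 8.77 after SDS, against 9.41, 9.17 and 9.46 before it. The groups did not overlap in either diet, though in GC-fed skin the highest sample after SDS lay just under the lowest before it. Per2 fell by 0.58 ± 0.12 in GC-fed skin (SE, fold 0.669, limma adjusted p = 0.0131) and by 0.62 ± 0.12 in control-fed skin (fold 0.653, adjusted p = 0.00882). The GC-fed call was lost without after-SDS array 3 (-0.48, adjusted p = 0.0602) or before-SDS array 2 (-0.51, adjusted p = 0.0766). The control-fed call was lost without before-SDS array 1 (-0.64, adjusted p = 0.0811) or before-SDS array 3 (-0.54, adjusted p = 0.0504). The dimmer Per2 probe, above background in 11 of 14 channels, gave -0.08 in GC-fed and -0.04 in control-fed skin and did not pass.

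Per3, the third period gene, had log2 intensities of 8.11, 8.21, 8.05 and 8.25 in GC-fed skin after SDS, against 8.55, 8.58 and 9.22 before it. In control-fed skin they were 8.04, 8.30, 8.43 and 8.44 after SDS, against 8.49, 8.62 and 8.82 before it. The groups did not overlap in either diet, with a narrow gap in control-fed skin. Per3 fell by 0.64 ± 0.15 in GC-fed skin (SE, fold 0.644, limma adjusted p = 0.0224), while the control-fed value was -0.33 ± 0.15 (adjusted p = 0.167). The GC-fed call was lost without after-SDS array 2, after-SDS array 3, before-SDS array 2 or before-SDS array 3, with adjusted p of 0.0506, 0.0725, 0.0617 and 0.0611. The difference between the diets is the after-minus-before diet ratio given above, and it did not pass.

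**Figure D3:**
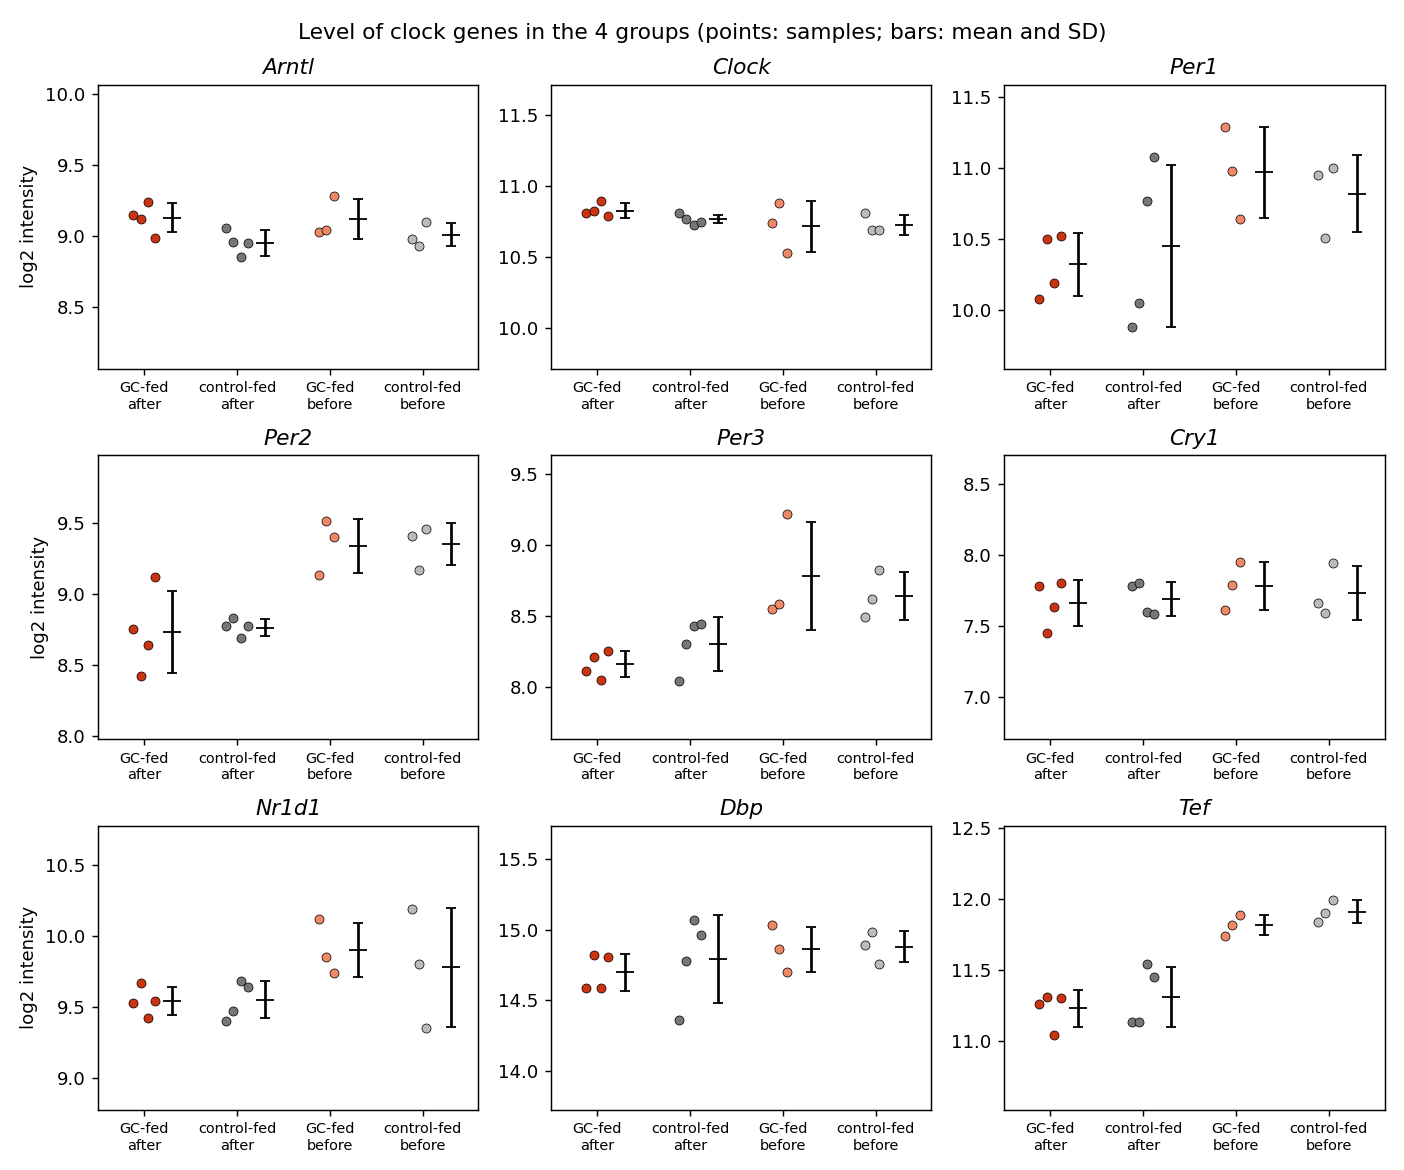
Log2 intensity (vertical axis, a window of 2 log2 units in each panel) of the brightest probe of 9 clock genes in GC-fed and control-fed skin after SDS and in GC-fed and control-fed skin before SDS, with 1 point per sample and bars for mean and SD. Tef, Per2 and Per3 lie lower after SDS with no overlap in either diet, while Arntl and Clock overlap throughout.

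Per1 had log2 intensities of 10.08, 10.50, 10.19 and 10.52 in GC-fed skin after SDS, against 11.29, 10.98 and 10.64 before it, with no overlap. In control-fed skin they were 9.88, 10.05, 10.77 and 11.08 after SDS, against 10.95, 10.51 and 11.00 before it, with overlap. Its change was -0.70 ± 0.23 in GC-fed skin (SE, limma adjusted p = 0.0712) and -0.32 ± 0.23 in control-fed skin (adjusted p = 0.376), and the GC-fed value passed without after-SDS array 4 (-0.80, adjusted p = 0.0306). Nr1d1 had log2 intensities of 9.53, 9.67, 9.42 and 9.54 in GC-fed skin after SDS, against 10.12, 9.85 and 9.74 before it, a change of -0.37 ± 0.16 (SE, limma adjusted p = 0.149). In control-fed skin its change was -0.22 ± 0.16 (adjusted p = 0.364).

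Arntl and Dbp, the genes of opposite phase, did not pass in either diet. Arntl averaged 9.13 ± 0.10 in GC-fed skin after SDS (SD, n = 4) and 9.12 ± 0.14 before it (n = 3), and 8.95 ± 0.09 in control-fed skin after SDS and 9.01 ± 0.08 before it. Its change was 0.02 ± 0.08 in GC-fed and -0.06 ± 0.08 in control-fed skin (SE), with 95% intervals from -0.16 to 0.20 and from -0.24 to 0.12. Dbp had log2 intensities of 14.59, 14.82, 14.59 and 14.81 in GC-fed skin after SDS, against 15.03, 14.86 and 14.70 before it, and of 14.36, 14.78, 15.07 and 14.96 in control-fed skin after SDS, against 14.89, 14.98 and 14.76 before it. The groups overlapped in both diets. The changes of Dbp were -0.19 ± 0.13 and -0.06 ± 0.13 (SE), with intervals from -0.47 to 0.09 in GC-fed and from -0.34 to 0.22 in control-fed skin. The Dbp spots were far from saturation, the brightest having a mean signal of 51757.

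Clock and Cry1 did not pass in either diet. At the brightest Clock probe the change was 0.12 ± 0.08 in GC-fed and 0.03 ± 0.08 in control-fed skin, but at the next brightest probe it was -0.22 ± 0.08 and -0.19 ± 0.08 (SE), with no overlap of the groups in either diet, so the 2 probes of the gene disagree. The brightest Cry1 probe gave -0.10 ± 0.11 in GC-fed and -0.06 ± 0.11 in control-fed skin. The dimmest Nr1d1 probe, above background in 8 of 14 channels, gave 0.12 ± 0.07 and 0.22 ± 0.07, opposite in sign to the brightest Nr1d1 probe.

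**Figure D4:**
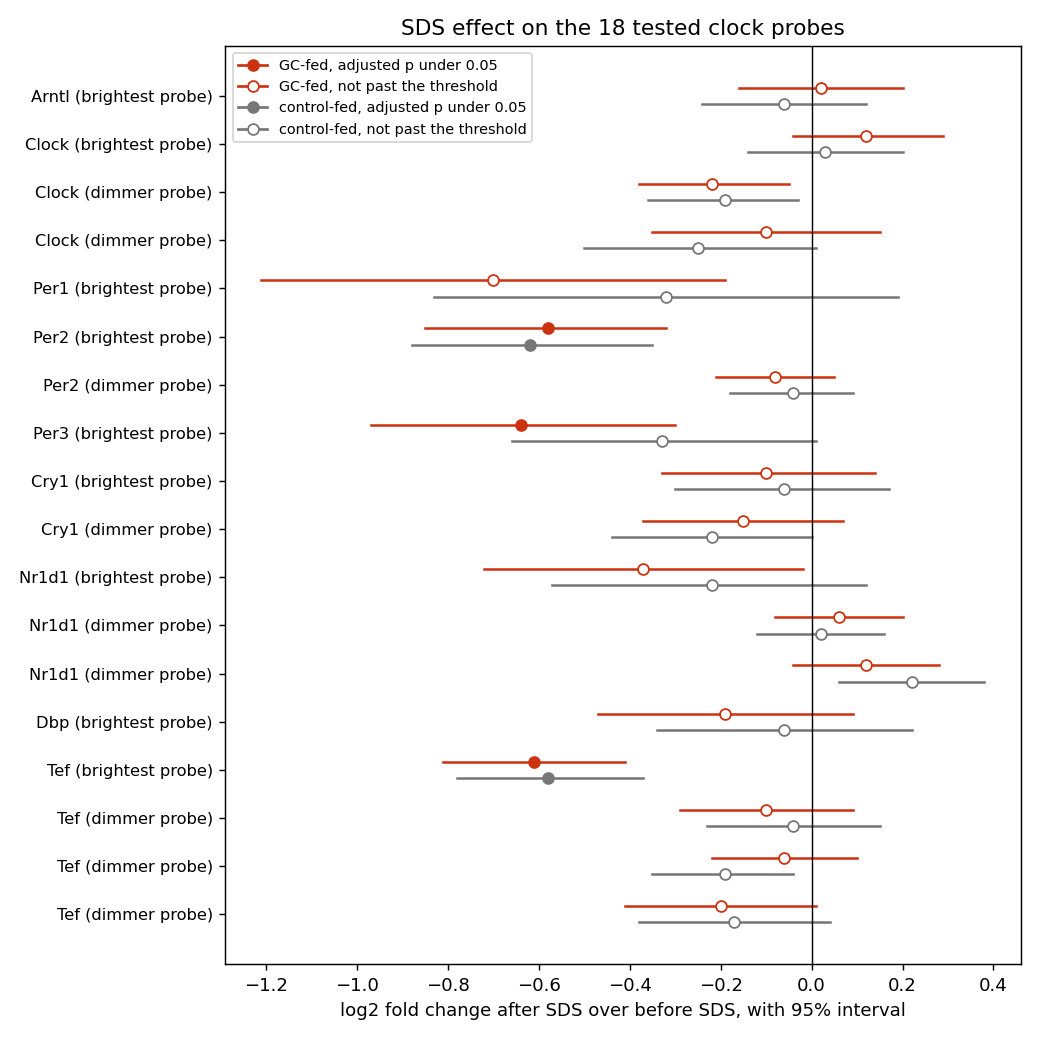
Log2 fold change of skin after SDS over skin before SDS (horizontal axis) with 95% intervals for the 18 tested clock probes, in GC-fed (red) and control-fed (grey) skin; filled points passed the adjusted threshold. Tef and Per2 are filled in both diets and Per3 in GC-fed skin, each at the brightest probe of its gene.

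All samples after SDS lay below all samples before it for 6 of 18 clock probes in GC-fed skin, where 11.8% of all probes did so, and for 5 of 18 in control-fed skin, where 15.5% did. The probes were those of Tef, Per2, Per3 and the next brightest Clock probe in both diets, of Per1 and Nr1d1 in GC-fed skin, and a dimmer Tef probe in control-fed skin. The GC-fed and control-fed changes come from the same 2 slides and are not independent of each other.

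The cell type markers moved with SDS as well. Of 12 hair follicle markers tested, 9 rose in GC-fed and 6 in control-fed skin, with median log2 changes of 1.57 and 1.07. Their summed intensity ran from 256000 to 427000 in GC-fed skin after SDS, against 65800 to 176000 before it, and from 183000 to 412000 in control-fed skin after SDS, against 70100 to 393000 before it. Of 7 basal keratinocyte markers 0 passed in GC-fed and 3 fell in control-fed skin, with medians of -0.15 and -0.33. Skeletal muscle markers had medians of -0.35 and 0.24, with 0 and 2 of 10 rising, and adipocyte markers 0.06 and 0.36, with 0 and 3 of 9 rising. Of 7 sebaceous gland markers 2 fell in each diet, with medians of -0.24 and -0.27, and of 6 endothelial markers 2 fell in GC-fed and 1 in control-fed skin, with medians of -0.28 and -0.06. The summed endothelial intensity ran from 5860 to 8240 in GC-fed skin after SDS, against 8710 to 8880 before it, and from 7210 to 8210 in control-fed skin after SDS, against 8700 to 9350 before it. The part of these shifts in the changes of Tef, Per2 and Per3 was not tested.

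Of 16 other clock genes, 13 were tested, and after SDS the same count passed in each diet, with 2 falls and 1 rise, where 12.1% of all probes passed in GC-fed and 13.5% in control-fed skin. Hlf, the third PAR bZIP factor, fell by 0.55 ± 0.14 in GC-fed skin (SE, limma adjusted p = 0.025) and by 0.56 ± 0.14 in control-fed skin (adjusted p = 0.0202). Cry2, the second cryptochrome, fell by 0.58 ± 0.12 in GC-fed skin (adjusted p = 0.0122) and by 0.39 ± 0.12 in control-fed skin (adjusted p = 0.0499). Csnk1e, a kinase of PER proteins, rose by 0.40 ± 0.06 in GC-fed skin (adjusted p = 0.0052) and by 0.24 ± 0.06 in control-fed skin (adjusted p = 0.0289). The list's median change was -0.02 and -0.09.

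Cry2 had log2 intensities of 9.05, 9.20, 8.86 and 8.88 in GC-fed skin after SDS, against 9.42, 9.44 and 9.83 before it. Hlf had 9.64, 10.08, 9.98 and 9.58 in GC-fed skin after SDS, against 10.24, 10.47 and 10.39 before it. In control-fed skin Cry2 ran from 8.90 to 9.33 after SDS, against 9.42 to 9.59 before it. Hlf ran from 9.49 to 9.89 after SDS in control-fed skin, against 10.15 to 10.43 before it. For both genes the groups did not overlap in either diet. Over all probes, 11.8% in GC-fed and 15.5% in control-fed skin had all samples after SDS below all samples before it.

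Of 11 genes listed as clock output, 1 rose and 3 fell in GC-fed skin, and 2 rose and 2 fell in control-fed skin, beside the same shares of 12.1% and 13.5% over all probes. Herpud1, a protein of endoplasmic reticulum quality control, fell by 0.58 ± 0.09 and 0.63 ± 0.09 (SE), with limma adjusted p of 0.00462 in GC-fed and 0.00269 in control-fed skin. Cys1 fell by 0.50 and 0.54, and Lonrf3 rose by 0.52 and 0.59. Wee1, a kinase that holds back mitosis and is under clock control in liver, fell by 0.49 ± 0.12 in GC-fed skin (adjusted p = 0.0221), and Gys2 rose by 0.37 in control-fed skin. Both genes were dim. Wee1 ran from 7.31 to 7.57 in GC-fed skin after SDS, where Npas2, not well above background, ran from 7.25 to 7.46. Gys2 ran from 7.57 to 7.99 in control-fed skin before SDS.

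Period genes also respond to glucocorticoids and to growth signals, so genes of those responses were read beside them. Of 11 glucocorticoid response genes, 2 fell in GC-fed and 1 in control-fed skin, with 0 rising, a share near the 12.1% and 13.5% of all probes that passed. Fkbp5, a chaperone partner of the receptor, fell by 0.79 ± 0.20 in GC-fed skin (SE, limma adjusted p = 0.0249) and by 0.82 ± 0.20 in control-fed skin (adjusted p = 0.0196). Nr3c1, the receptor gene, fell by 0.35 ± 0.07 in GC-fed skin (adjusted p = 0.0111). Of 12 immediate early genes, 1 fell in GC-fed skin and 0 passed in control-fed skin, no more than those shares of all probes, with medians of -0.01 and 0.33. The 1 gene was Fosb, which fell by 1.04 ± 0.24 (SE, adjusted p = 0.0183). Its log2 intensities in GC-fed skin were 7.69, 7.58, 7.39 and 8.08 after SDS, against 9.02, 9.18 and 7.99 before it, so the groups overlapped. In control-fed skin its change was -0.17 ± 0.24 (SE). None of these 4 lists had a gene that passed in a diet comparison (limma, 0 genes), and in the glucocorticoid list the smallest unadjusted p after SDS was 0.027, for Hsd11b1, whose log2 ratio was -0.41 ± 0.15 (SE).

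In the SDS contrast the brightest probes of Tef, Per2, Hlf and Cry2 thus fell in both diets and that of Per3 in GC-fed skin. Csnk1e rose in both diets, while no change of Arntl or Dbp was detectable with this number of arrays. The dimmer Tef and Per2 probes did not pass, and calls of Tef, Per2 and Per3 were lost in some runs with an array left out. Hlf and Cry2 were not examined in such runs, and Cry2 passed narrowly in control-fed skin (limma adjusted p = 0.0499). The labels give no hour for either day, so a difference in hour between the days was not tested.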

How the data were processed

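The 7 scanner files held spot intensity in 2 channels, extracted by the authors with Agilent Feature Extraction 9.1.3.1, per the file headers. The authors also deposited a table of log2 ratios per gene, in which 8 of the 10 clock genes appear; it was used as an alternative only. From the mean signals, limma 3.58.1 (R 4.3.3) made normexp background correction (offset 50) and loess within arrays; spots of a probe were averaged, and a probe was tested if at least 3 of the 14 channels put it well above background. Diet effects came from 1 fit (lmFit, eBayes) to the ratios of 7 arrays with a dye term, with 4 residual degrees of freedom and 2.87 from eBayes, and a fit with 1 diet coefficient. SDS effects came from the separate-channel fit after Aquantile normalization (9 residual degrees of freedom, correlation within spots 0.0308), from which 60 probes with a missing spot were left out. Benjamini-Hochberg adjustment ran over all probes, with a threshold of 0.05. The fits for the diet effect in each state and for the SDS effects were tested on simulated data. The other steps were not tested in that way.

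Members and lists were chosen with earlier results of these data known. All member probes are named; the brightest probe of a gene is its main probe. From each further list the rule named up to 4 genes with the smallest p where a clock gene passed and otherwise up to 2. A withheld item that this rule would name is not reported here. Likeness took the 5 genes with the highest Pearson's r, with the members left out beforehand. Same-numbered replicates correlated at -0.18 to 0.26, with 1 of 6 pairs over 0.1. No pairing by number was thus seen, and the main fits did not pair samples across SDS states. So few samples cannot show that the numbers carry no pairing. Alternatives were other signals, centring, normalization, no filter, 1 probe per gene name, no dye term, a replicate block and each array left out.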

Additional observations from a re-analysis of the deposited data

Results flagged for a closer look

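In 54 groups of 4 values of the tested clock probes, the highest or lowest sample was compared with the other 3 by Dixon's criterion, which chance meets in about 1 of 20 groups. It was met in 2 groups, both in control-fed skin after SDS. A dimmer Tef probe (A_52_P173309) had a log2 intensity of 7.33 in replicate 1, against 7.59 to 7.61 in the other 3 samples. This Tef probe was well above background in 1 of the 4 samples, replicate 2, and not in replicate 1. The dimmer Cry1 probe (A_52_P420500) had 7.44 in replicate 2, against 7.09 to 7.14, and was not well above background in any of the 4 samples.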

How the results depend on the processing

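No clock probe passed in a diet comparison under any alternative run, though without after-SDS array 4 the count over all probes was 1011 after SDS and 63 for the difference, against 0 with all arrays. For SDS, the clock count of 3 in GC-fed and 2 in control-fed skin became 3 and 4 with the scanner software's processed signals (over all probes 1410 and 3281, against 3035 and 3396). In that setting a dimmer Nr1d1 probe rose in both diets, Per3 no longer passed in GC-fed skin (adjusted p = 0.0749), and a dimmer Tef probe fell in control-fed skin. Leaving out each array in turn gave 1 to 4 in GC-fed and 0 to 2 in control-fed skin. Without before-SDS array 3 these counts include a rise of the same Nr1d1 probe in control-fed skin (0.3, limma adjusted p = 0.0455). They also include a fall of the next brightest Clock probe in GC-fed skin (-0.31, adjusted p = 0.04). With quantile normalization of the channels the Nr1d1 probe rose in control-fed skin as well (0.22, adjusted p = 0.0418). The count was 1 in GC-fed skin without after-SDS array 3 or before-SDS array 2 (1098 and 615 over all probes), and 0 in control-fed skin without before-SDS array 1 (106 over all probes). Over all probes the GC-fed count was 791 without before-SDS array 3 and 1932 without before-SDS array 1, and the control-fed count was 1608 without before-SDS array 2, 1510 without before-SDS array 3, 2196 without after-SDS array 1 and 2237 without after-SDS array 2. With a replicate block, at the correlation within spots of the fit without it, the clock counts were 4 in GC-fed skin (Per1 added, -0.84, adjusted p = 0.0488), 2 in control-fed skin and 0 for the difference in diet ratio, and the counts over all probes were 1687 and 1911. The causes were not tested.

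Several uncalled ratios changed sign. Before SDS, Cry1 was -0.13 with processed signals and Dbp -0.02 without the dye term. After SDS, Nr1d1 was 0.08 in the authors' deposited table, 0.03 with median centring and 0.11 with processed signals. In the same state Per2 was 0.04 with median centring, and Per3 was 0.01 in the authors' deposited table and 0.03 with processed signals. The deposited Per3 ratios were 0.05, 0, 0 and 0 after SDS and 0, -0.01 and 0.65 before SDS, so that table holds little on Per3. For the ratio after minus before SDS, Cry1 was 0.04 with the replicate block, Per2 was -0.03 without the dye term, and Tef was 0.01 without the dye term, in the authors' deposited table and with processed signals. Over 7 arrays, Cry1 was 0.01 with median centring and without the dye term, Per1 -0.01 without the dye term, Per2 0.02 with median centring, and Per3 0.09 in the authors' deposited table, 0.05 with median centring and 0.16 with processed signals. For SDS in control-fed skin, Clock was -0.02 with processed signals.

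With each array left out, ratios that crossed 0 spanned, before SDS, -0.12 to 0.06 for Clock, -0.04 to 0.07 for Cry1, -0.01 to 0.40 for Nr1d1, -0.01 to 0.50 for Per1, -0.17 to 0.03 for Per2 and -0.10 to 0.14 for Tef. After SDS they spanned -0.09 to 0.06 for Cry1, -0.07 to 0.08 for Nr1d1, -0.12 to 0.05 for Per2 and -0.14 to 0.03 for Tef. For after minus before they spanned -0.01 to 0.16 for Arntl, -0.10 to 0.03 for Cry1, -0.06 to 0.14 for Per2 and -0.23 to 0.10 for Tef. Over 7 arrays they spanned -0.04 to 0.04 for Cry1, -0.06 to 0.01 for Dbp, -0.01 to 0.10 for Nr1d1, -0.09 to 0.09 for Per1 and -0.09 to 0.04 for Per3. For SDS they spanned -0.03 to 0.09 for Arntl in GC-fed skin, and -0.15 to 0.07 for Cry1, -0.14 to 0.06 for Dbp and -0.45 to 0.06 for Nr1d1 in control-fed skin. Arntl kept a ratio above 0 before SDS, after SDS and over 7 arrays in each alternative run. Cry1 and the dimmer probes lie close to background, which limits what their ratios can show.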
